A study of Mus musculus with 2 samples.

Results

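A stretch of adjacent genes on mouse chromosome 10, from Txnrd1 to Washc4, was compared between cultured mouse pro-B cells of Setdb1 C/C and Setdb1 Δ/Δ genotype, together with Appl2, the next gene after it. The 8 members, in order, are Txnrd1, Eid3, Chst11, Slc41a2, D10Wsu102e, Aldh1l2, Washc4 and Appl2, out of 36980 gene symbols in the series. They were chosen by their position and by their RPKM values in the same libraries that are described here, so their differences are descriptions and support nothing by themselves. RPKM is reads per kilobase of transcript, scaled to the depth of the library. Of the 8 members, 7 were matched by transcript identifier, with 30 listed transcripts in all. Eid3 could not be matched by identifier and is not analysed here.

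The study deleted Setdb1, which encodes a histone H3 lysine 9 methyltransferase, in pro-B cells, the B cell precursors of the bone marrow. One culture carried undeleted alleles (Setdb1 C/C) and the other deleted alleles (Setdb1 Δ/Δ). Cells of both genotypes carried a bcl2 transgene, had been sorted from murine bone marrow and were cultured for 4 days with the growth factor IL-7 at 5 ng/µl. The strain, sex and age of the animals, the promoter of the bcl2 transgene, the way in which Setdb1 was deleted and the exons removed are not stated in the labels. The RNA was ribosome-depleted total RNA, and the labels state that pooled libraries of 2 samples were sequenced, without saying whether these 2 are the genotypes themselves. Each genotype is 1 sample with 1 column of values, so the spread between replicates is unknown and no test was made.

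H3 lysine 9 methylation deposited by SETDB1 keeps retroviral repeats and some genes silent, and a silenced repeat can lie within or between genes. The members of this stretch belong to separate gene families, though Washc4 and Appl2 both act on endosomes. Txnrd1 encodes cytosolic thioredoxin reductase, a selenoprotein that keeps thioredoxin reduced and is a target of the antioxidant factor NRF2. Chst11 encodes a sulfotransferase that adds sulfate to chondroitin, and Slc41a2 a magnesium transporter. D10Wsu102e encodes a small protein that takes part in assembly of small nucleolar ribonucleoproteins. Aldh1l2 encodes the mitochondrial enzyme that oxidises formyltetrahydrofolate. Washc4 encodes a subunit of the WASH complex, which builds actin on endosomes, and Appl2 an adaptor protein of early endosomes.

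The promoters of the members are shown because most of these genes were higher together while Appl2, beside them, was not. The sequences are the 250 bases before the RefSeq start sites in GRCm38.p6, 5′ to 3′ on the strand of each gene. They lie at chr10:82858956-82859205 for Txnrd1 (plus strand, the RefSeq start nearest to the listed transcript), chr10:82985247-82985496 for Chst11 (plus), chr10:83337818-83338067 for Slc41a2 (minus), chr10:83359971-83360220 for D10Wsu102e (plus), chr10:83543691-83543940 for Washc4 (plus) and chr10:83648665-83648914 for Appl2 (minus). Capitals mark matches, on either strand, to the motifs searched. The sequence table matched 6 of the 8 members. Aldh1l2 and Eid3 had no entry.
Txnrd1: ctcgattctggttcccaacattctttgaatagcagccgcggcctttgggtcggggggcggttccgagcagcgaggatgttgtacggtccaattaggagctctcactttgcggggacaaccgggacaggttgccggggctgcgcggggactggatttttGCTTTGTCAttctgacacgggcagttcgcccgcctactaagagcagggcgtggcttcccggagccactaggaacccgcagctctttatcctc
Chst11: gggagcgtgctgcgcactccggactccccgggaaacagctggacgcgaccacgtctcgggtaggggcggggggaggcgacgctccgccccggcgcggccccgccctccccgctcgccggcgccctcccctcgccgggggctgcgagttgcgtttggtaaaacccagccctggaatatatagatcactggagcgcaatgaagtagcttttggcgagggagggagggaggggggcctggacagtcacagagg
Slc41a2: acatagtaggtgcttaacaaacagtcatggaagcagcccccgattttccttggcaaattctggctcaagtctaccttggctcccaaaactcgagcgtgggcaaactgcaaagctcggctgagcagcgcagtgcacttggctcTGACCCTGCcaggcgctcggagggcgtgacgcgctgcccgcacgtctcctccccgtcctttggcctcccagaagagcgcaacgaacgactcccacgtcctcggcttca
D10Wsu102e: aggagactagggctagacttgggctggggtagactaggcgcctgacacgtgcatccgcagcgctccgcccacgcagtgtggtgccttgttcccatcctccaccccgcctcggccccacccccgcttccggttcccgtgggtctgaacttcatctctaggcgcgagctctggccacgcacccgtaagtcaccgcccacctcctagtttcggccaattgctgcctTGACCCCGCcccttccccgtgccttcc
Washc4: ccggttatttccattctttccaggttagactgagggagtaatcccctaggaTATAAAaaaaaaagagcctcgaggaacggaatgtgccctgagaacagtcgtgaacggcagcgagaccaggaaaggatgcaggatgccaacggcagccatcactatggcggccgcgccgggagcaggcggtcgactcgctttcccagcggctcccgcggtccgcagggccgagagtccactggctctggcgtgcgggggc
Appl2: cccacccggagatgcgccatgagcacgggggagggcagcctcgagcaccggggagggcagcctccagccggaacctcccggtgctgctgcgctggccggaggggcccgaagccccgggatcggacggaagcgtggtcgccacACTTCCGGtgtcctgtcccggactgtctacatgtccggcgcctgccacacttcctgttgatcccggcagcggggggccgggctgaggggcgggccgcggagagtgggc

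The motifs searched on both strands were TGACNNNGC (the core of the antioxidant response element bound by NRF2), TGATGNAA (the core of the C/EBP-ATF response element), TGACGTCA (the cAMP response element), CCGGAAGT (an ETS site), TATAAA (the TATA box) and the core of the interferon-stimulated response element. None of them overlapped another in these windows. The antioxidant core occurred in the promoters of Txnrd1 (92 bases before the start), Slc41a2 (108 bases) and D10Wsu102e (27 bases), where the distance is counted from the first base of the match on the printed strand. It occurred in 10.2% of 32851 promoters of the same length. The TATA box matched at 199 bases before the start of Washc4 (12.4% of all promoters) and the ETS site at 108 bases before the start of Appl2 (2.88%). The C/EBP-ATF core, the interferon-stimulated core and the cAMP element occur in 3.45%, 2.98% and 1.55% of all promoters and had no match in the printed sequences. These 6 promoters held 18 to 26 CpG dinucleotides, against a median of 6 over all promoters. The table holds 2 other RefSeq starts of Txnrd1, at chr10:82833951 and chr10:82860341, whose promoters held 2 and 10 CpG dinucleotides and no match to any of the motifs. Chst11 had 26 at 70.0% GC and Slc41a2 had 18 at 59.6% GC. A match is a string of letters and does not show that a factor binds.

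Depth was recovered from the deposited values, at 170.6 M reads (C/C) and 193.3 M reads (Δ/Δ). Setdb1 itself was at 17.0 RPKM (C/C) and 12.6 RPKM (Δ/Δ), a ratio of 0.743, over a whole transcript that may hold undeleted exons. The libraries also differed in sex markers: Xist had 0.094 and 23.7 RPKM, and the Y-linked genes Kdm5d, Eif2s3y, Uty and Ddx3y had 5.37 to 22.3 RPKM with C/C against 0 to 0.017 RPKM with Δ/Δ. Genotype and sex therefore cannot be told apart. A TruSeq RNA kit was used and the strand setting of the counts is not given. A gene's reads may therefore include those of an overlapping antisense gene. In RNA of a whole culture, more cells of a type and more RNA per cell cannot be told apart.

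Among the members, 6 genes were higher in Δ/Δ and none was lower. A gene is called higher or lower when log2((Δ/Δ + 0.5) / (C/C + 0.5)), on RPKM, was at least 1 or at most -1, a 2-fold change on that scale. A gene was measured when it reached 1 RPKM in at least 1 library. By this rule 6.28% of 12556 measured genes in the series were higher and 6.66% were lower. All 7 matched members were measured, but Chst11, Slc41a2 and Aldh1l2 reached 1 RPKM in Δ/Δ alone and so had to be higher there to enter. The other 4 reached it in both libraries, and Txnrd1, D10Wsu102e and Washc4 were higher while Appl2 was not. The median log2 ratio of the 7 members was 1.38, beside -0.09 for all measured genes.

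**Figure D1:**
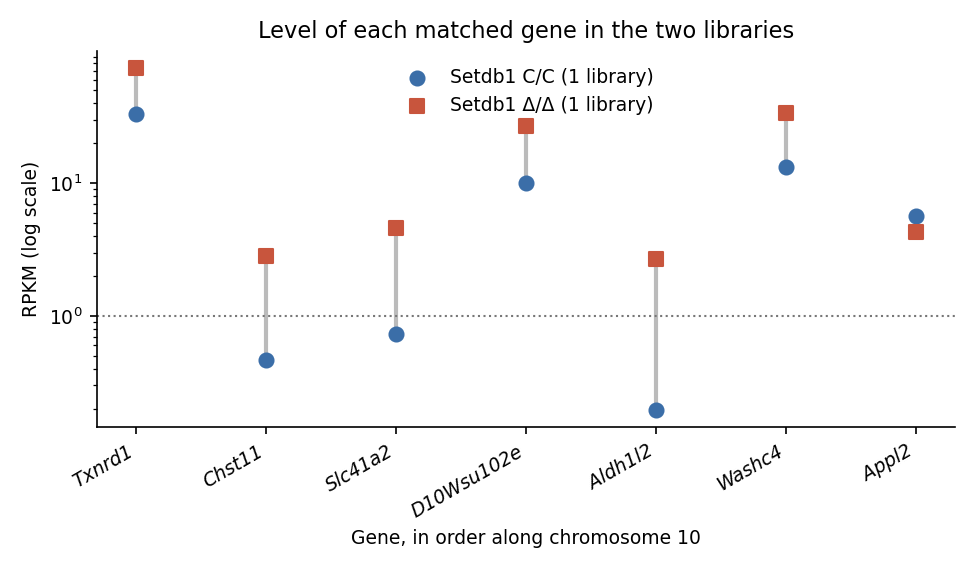
RPKM (log scale) of the 7 matched genes in order along chromosome 10, with 1 point per library (circle C/C, square Δ/Δ) and a dotted line at 1 RPKM. Txnrd1 rises from 33.2 to 74.0 RPKM and Aldh1l2 from 0.195 to 2.67 RPKM, while Appl2 goes the other way.

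Txnrd1 (ENSMUST00000020484, GRCm38 chr10:82859179-82897712, plus strand, 14 exons) had the highest level of the members in both libraries. Only this 1 of the 8 annotated Txnrd1 transcripts was listed. It had 33.2 RPKM (C/C) and 74.0 RPKM (Δ/Δ), from 18827 and 47567 reads. The ratio was 2.23, with a 95% counting interval of 2.18 to 2.29, and the log2 ratio was 1.15. Eid3 lies inside the span of Txnrd1 (chr10:82866626-82867930, plus strand) and shares 0 exonic bases with this transcript. It encodes an inhibitor of differentiation that is related to a subunit of the SMC5/6 complex.

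Chst11 (ENSMUST00000040110, chr10:82985498-83195900, plus strand, 3 exons) had 0.468 RPKM (C/C) and 2.82 RPKM (Δ/Δ), from 441 and 3010 reads. The ratio was 6.02 (interval 5.22 to 6.96) and the log2 ratio 1.78. The sulfotransferase gene thus went from a level below 1 RPKM to one above it. An antisense gene inside it, 1700025N21Rik, was listed at 0 RPKM (C/C) and 0.015 RPKM (Δ/Δ).

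Slc41a2 (chr10:83230848-83337882, minus strand) lies 34.9 kb beyond Chst11, with its 3′ end on that side, and had 5 listed transcripts. The short transcript of highest RPKM, Slc41a2-203 (ENSMUST00000139329, 363 bases), stood for the gene, with 0.726 RPKM (C/C) and 4.58 RPKM (Δ/Δ), from 45 and 321 reads. Its ratio was 6.30 (interval 4.12 to 10.6) and its log2 ratio 2.05. The full coding transcript, Slc41a2-201 (4742 bases, 11 exons), rests on more reads, 512 and 2855, and measured 0.633 and 3.12 RPKM, a ratio of 4.92 (interval 4.31 to 5.64). All 5 transcripts of the magnesium transporter gene were higher in Δ/Δ, with ratios of 4.16 to 6.30.

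D10Wsu102e (ENSMUST00000020488, chr10:83360221-83488505, plus strand) had 9.99 RPKM (C/C) and 26.8 RPKM (Δ/Δ), with a ratio of 2.69 and a log2 ratio of 1.38. Its gene model decides what this value covers. GENCODE M21 gives it 4 exons and 123179 bases, the longest of all listed transcripts, because the last exon (chr10:83365704-83488505) is 122802 bases long and runs into the 3′ end of Aldh1l2, with which it shares 1056 exonic bases. The RefSeq gene ends at chr10:83368835, which leaves 3509 exonic bases and a gap of 119 kb to Aldh1l2. The sources used here do not say which model the authors counted, so no read number is given for this gene. The counting interval of the ratio was 2.58 to 2.80 with the shorter model and 2.67 to 2.70 with the longer one.

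Aldh1l2 (chr10:83487450-83534140, minus strand) had the largest ratio of the members, from the lowest level. Its transcript of highest RPKM, Aldh1l2-202 (ENSMUST00000125193, 692 bases), had 0.195 RPKM (C/C) and 2.67 RPKM (Δ/Δ), from 23 and 357 reads. The ratio was 13.7 (interval 7.36 to 26.0) and the log2 ratio 2.19. The full coding transcript, Aldh1l2-201 (6027 bases, 23 exons), measured 0.105 and 1.52 RPKM, from 108 and 1776 reads, a ratio of 14.5 (interval 11 to 19.5). Over the 7 listed transcripts of this mitochondrial folate enzyme gene the ratio ran from 10.1 to 19.6. The lower limit of every interval lay above 4. On the log2 scale 6 of the 7 transcripts passed the 2-fold rule, and the exception, Aldh1l2-204 (0.047 and 0.475 RPKM), had a log2 ratio of 0.83 because its level lies under the added 0.5.

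Washc4 (ENSMUST00000038388, chr10:83543941-83596473, plus strand, 33 exons) begins 9.61 kb beyond the 5′ end of Aldh1l2 when the first annotated start of Washc4 is used. Only this 1 of the 4 annotated Washc4 transcripts was listed. This WASH complex gene had 13.3 RPKM (C/C) and 33.9 RPKM (Δ/Δ), from 13301 and 38377 reads. The ratio was 2.55 (interval 2.48 to 2.62) and the log2 ratio 1.32.

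Appl2 (chr10:83600033-83648738, minus strand) lies 3.56 kb beyond the end of Washc4 and did not pass the rule. Its transcript of highest RPKM, Appl2-212 (ENSMUST00000176294, 380 bases), had 5.64 RPKM (C/C) and 4.33 RPKM (Δ/Δ), with a ratio of 0.767 (interval 0.616 to 0.954) and a log2 ratio of -0.35. The full coding transcript, Appl2-201 (21 exons), measured 3.72 and 3.19 RPKM from 1919 and 1864 reads, a ratio of 0.858 (interval 0.783 to 0.939). Over the 14 listed transcripts the ratio ran from 0.767 to 1.04. Short transcripts that reach the 5′ end, Appl2-212, Appl2-211 and Appl2-206, had ratios of 0.767, 0.785 and 0.792. The longer Appl2-208 and Appl2-201, which also reach it, had 0.846 and 0.858. Transcripts of the 3′ part ran from 0.866 (Appl2-209, interval 0.719 to 1.04) to 1.04 (Appl2-202, interval 0.802 to 1.34). Between these lay 0.873 (Appl2-203), 0.887 (Appl2-205), 0.921 (Appl2-210), 0.955 (Appl2-213) and 1.0 (Appl2-214, interval 0.794 to 1.28). Their intervals overlap those of the 5′ transcripts. The bases of Appl2-201 outside Appl2-212 had a ratio of 0.878 (interval 0.794 to 0.972).

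**Figure D2:**
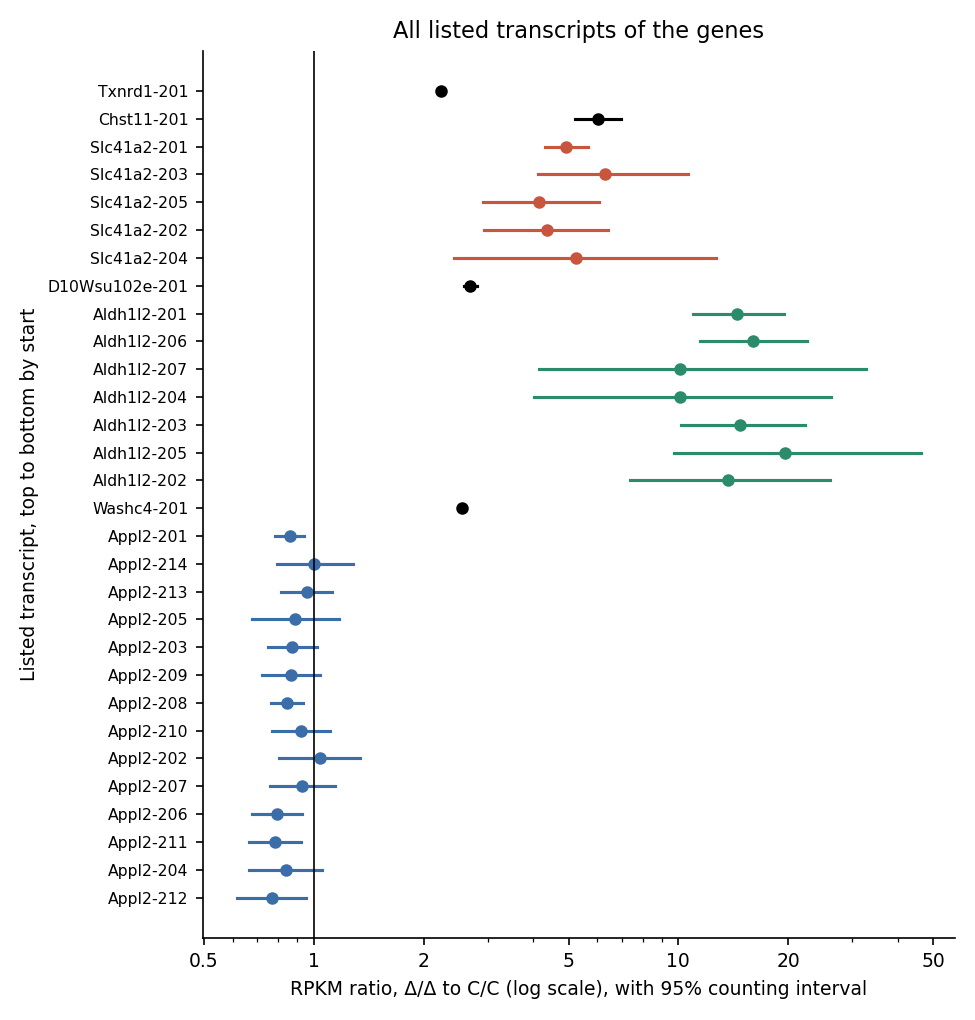
RPKM ratio of Δ/Δ to C/C (log scale) for all 30 listed transcripts of the members, with bars for the 95% counting interval and colours for Slc41a2, Aldh1l2 and Appl2. All transcripts of Slc41a2 and Aldh1l2 lie to the right of 1, and those of Appl2 run from 0.767 to 1.04. Bars of Txnrd1 and Washc4 are narrower than their points.

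The ratios of the 6 higher members fell into a high and a low range, which the selection partly fixes. Chst11, Slc41a2 and Aldh1l2, each under 1 RPKM in C/C and measured through Δ/Δ alone, could enter only with a raised ratio, and theirs were 6.02, 6.30 and 13.7. Txnrd1, D10Wsu102e and Washc4, at 9.99 RPKM or more in C/C, had ratios of 2.23, 2.69 and 2.55, so no relation between level and ratio is read from these genes. Among the last 3 the interval of Txnrd1 (2.18 to 2.29) lay below that of Washc4 (2.48 to 2.62), while those of Washc4 and D10Wsu102e overlapped with the shorter model of D10Wsu102e and did not with the longer one. As differences in RPKM the order was another: Txnrd1 gained 40.8 RPKM, Washc4 20.6, D10Wsu102e 16.8, Slc41a2 3.85, Aldh1l2 2.48 and Chst11 2.35 RPKM. By level in C/C the order was Txnrd1, Washc4, D10Wsu102e, Appl2, Slc41a2, Chst11 and Aldh1l2. In Δ/Δ the only change in that order was that Slc41a2 (4.58 RPKM) stood above Appl2 (4.33 RPKM), which is not so for their full coding transcripts (3.12 and 3.19 RPKM). Ranked by log2 ratio among the 12556 measured genes, Aldh1l2 stood at place 174, Slc41a2 at 208 and Chst11 at 290. D10Wsu102e stood at 471, Washc4 at 513 and Txnrd1 at 638. The places of Aldh1l2 and Slc41a2 rest on their short transcripts. Their full coding transcripts had log2 ratios of 1.74 and 1.67, under the 1.78 of Chst11.

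**Figure D3:**
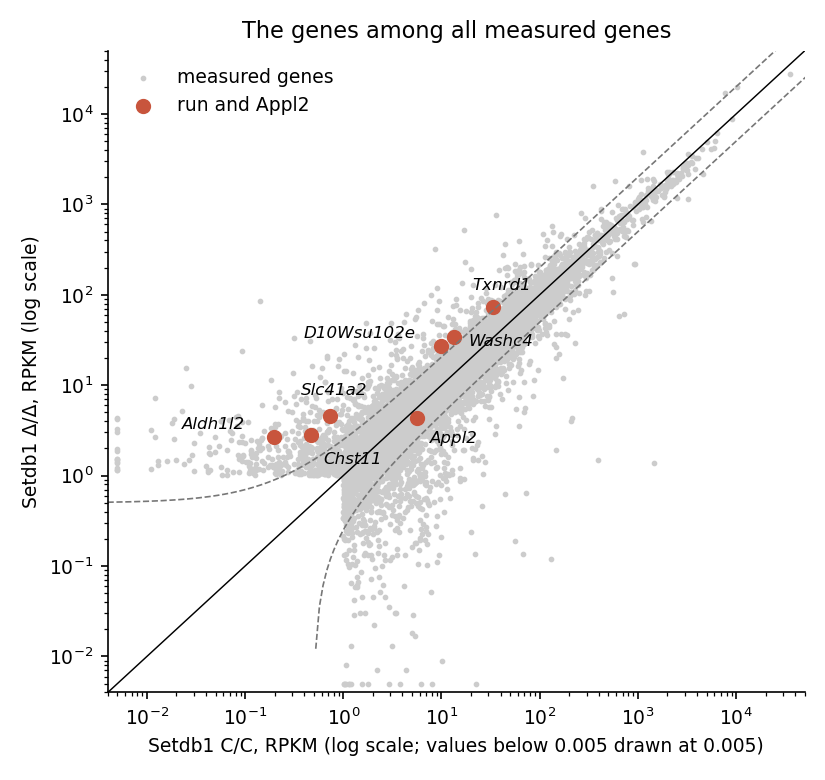
RPKM in Δ/Δ against RPKM in C/C (both log scales) for the 12556 measured genes, 1 point a gene, with equality as a solid line and the 2-fold rule as dashed curves. Of the named members, 6 lie above the upper curve and Appl2 lies between the curves.

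The higher genes were consecutive among measured protein-coding genes, over 737 kb and on both strands, between Nfyb and Appl2. Of the 10 annotated protein-coding genes on the side of Txnrd1, 5 were measured and 0 passed the rule in either direction, with log2 ratios of -0.60 to 0.60. The nearest was Nfyb, which encodes a subunit of the CCAAT-binding factor NF-Y and lies 95 kb before the listed Txnrd1 transcript. It had 42.2 RPKM (C/C) and 27.6 RPKM (Δ/Δ), a ratio of 0.656. The next measured genes were Hcfc2 (10.9 and 12.1 RPKM) and Tdg, a DNA glycosylase that removes thymine from mismatches (22.1 and 33.7 RPKM). Glt8d2, between these, stayed under 1 RPKM (0.974 and 0.430 RPKM).

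Beyond Appl2, 8 of the next 10 protein-coding genes were measured. The nearest were 1500009L16Rik (3.21 and 4.64 RPKM), Nuak1, a protein kinase gene (8.73 and 4.63 RPKM), and Ckap4, which encodes a membrane protein of the endoplasmic reticulum (5.40 and 14.8 RPKM). Of the 8, 1 was higher, Ckap4 with a log2 ratio of 1.38, and 1 was at the edge of the rule as lower, Tcp11l2 (20.4 and 9.93 RPKM, log2 ratio -1.0). Other annotated genes inside the stretch numbered 8, of which 3 were matched and 0 measured.

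**Figure D4:**
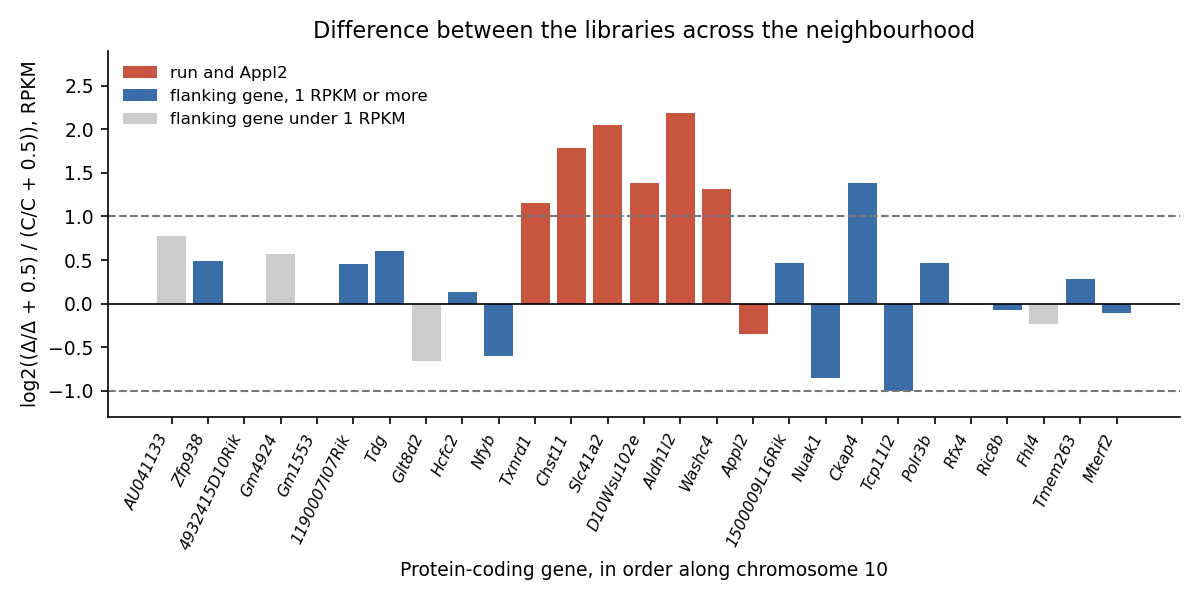
log2 ratio of RPKM, Δ/Δ to C/C, for the matched members (red) and the 10 protein-coding genes on either side in order along chromosome 10 (blue, or grey under 1 RPKM), with dashed lines at 1 and -1. The 6 bars from Txnrd1 to Washc4 pass the upper line, and Nfyb and Appl2 on either side lie below 0.

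Stretches of consecutive measured protein-coding genes that all passed the rule in one direction were listed for the whole genome, as a description. With 3 or more genes there were 30 such stretches, and 6 of them held at least 5 genes. The stretch from Txnrd1 to Washc4 was chosen by these same values, so its place among them is a description only. It counts Chst11, Slc41a2 and Aldh1l2, which reached 1 RPKM in Δ/Δ alone and so had to be higher to enter. With 6 genes and a median log2 ratio of 1.58, it was the third in length. The longer ones were the 13 protein-coding genes of the mitochondrial genome (median 2.13) and 9 Ugt1a genes on chromosome 1 (median 1.59), glucuronosyltransferase genes that share exons and therefore reads. Those of 5 genes were the interferon-inducible genes from Ifi206 to Ifi208 on chromosome 1 (higher), the class II histocompatibility genes from H2-Ob to H2-Eb2 on chromosome 17 (lower) and the calcium-binding protein genes up to S100a9 on chromosome 3 (higher).

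For each of the 6 higher members, the 2 protein-coding genes with the most similar pair of levels were found by distance in log2(RPKM + 0.5) over the 2 libraries. For Txnrd1 they were Gnl3 (33.5 and 71.6 RPKM) and Ipo7 (34.2 and 76.3 RPKM). For Washc4 they were Cndp2 (13.3 and 36.1 RPKM) and Nucb2 (12.4 and 32.4 RPKM), and for D10Wsu102e Xaf1 (10.3 and 25.9 RPKM) and Gbp2 (9.68 and 28.8 RPKM). Chst11 was nearest to Timp3 (0.460 and 2.93 RPKM) and Ifi214 (0.466 and 2.96 RPKM), and Slc41a2 to P2rx7 (0.705 and 4.41 RPKM) and Tcea3 (0.782 and 4.85 RPKM). Aldh1l2 was nearest to Lcn2 (0.218 and 2.72 RPKM) and Ltf (0.227 and 2.65 RPKM). Slc41a2 and Aldh1l2 were compared by their short transcripts, and no such genes were sought for their full coding transcripts. All distances were between 0.050 and 0.114. A likeness over 2 libraries is a likeness in 1 difference, and many genes share it.

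Genes that work with the members were given by 11 lists of partners, members left out. Of 180 partners 157 were measured, 9 of them higher (5.73%) and 5 lower (3.18%), with a median log2 ratio of 0.03. These shares lie near or under those of all measured genes.

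In the thioredoxin system, 2 of 13 partners of Txnrd1 were higher and 0 lower (median 0.27). The higher ones were the peroxide-reducing enzyme gene Prdx1 (223 and 464 RPKM) and Srxn1, whose product repairs peroxiredoxins (0.219 and 2.83 RPKM). Srxn1 reached 1 RPKM in Δ/Δ alone. Txn1, the substrate of the reductase, measured 140 and 265 RPKM, a log2 ratio of 0.91, and Txnip, which encodes an inhibitor of thioredoxin, measured 158 and 79.1 RPKM, a log2 ratio of -0.99. Neither of them passed the rule. The paralogues Txnrd2, the mitochondrial enzyme (2.92 and 2.86 RPKM), and Txnrd3 (24.0 and 24.4 RPKM) had log2 ratios of -0.03 and 0.02. Among 13 measured targets of NRF2, 3 were higher and 1 lower (median 0.20). Beside Prdx1 and Srxn1, which are in both lists, they were the heme oxygenase gene Hmox1 (0.613 and 1.82 RPKM) and, lower, Mgst1 (42.2 and 15.4 RPKM). Srxn1 and Hmox1 were under 1 RPKM in C/C and had to be higher to enter, and of the 11 targets at 1 RPKM or more in both libraries 1 was higher and 1 lower. With a filter of 5 RPKM 1 was higher. Nqo1, a standard target of this factor, stayed under 1 RPKM (0.241 and 0.253 RPKM), and the glutathione synthesis gene Gclc measured 30.9 and 28.7 RPKM. None of the 7 genes of selenoprotein synthesis passed the rule (median -0.05).

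In chondroitin and dermatan sulfate synthesis, where Chst11 acts, 0 of 18 measured partners were higher and 3 were lower (median -0.34). The lower ones were the sulfotransferase genes Chst3 (130 and 64.0 RPKM) and Chst15 (8.75 and 3.69 RPKM) and the chain polymerisation gene Chpf (1.56 and 0.234 RPKM), which reached 1 RPKM in C/C alone. Chst3 lies at the edge of the rule with a log2 ratio of -1.01. Chst12, which encodes an enzyme with the same activity as that of Chst11, measured 11.6 and 12.7 RPKM, and Chst13 was listed at 0 RPKM (C/C) and 0.019 RPKM (Δ/Δ). Of 11 measured magnesium transporter genes 1 was higher, Magt1 (23.7 and 56.1 RPKM), an X-linked gene, with a list median of -0.10. The paralogues of Slc41a2 were not higher, with 10.1 and 8.39 RPKM for Slc41a1 and 0.600 and 0.339 RPKM for Slc41a3.

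Of 13 measured partners of D10Wsu102e in box C/D ribonucleoprotein assembly, 1 was higher, the core protein gene Nop58 (39.2 and 84.7 RPKM), and the median was 0.23. In folate metabolism 2 of 22 partners of Aldh1l2 were higher and 0 lower (median 0.21). They were Gldc (125 and 257 RPKM) and Gcsh (22.8 and 54.0 RPKM), which encode parts of the glycine cleavage system. The other parts of that system did not pass the rule, with 1.44 and 0.547 RPKM for Amt (log2 ratio -0.89, and called lower with a pseudocount of 0.1 RPKM) and 17.4 and 28.9 RPKM for Dld (log2 ratio 0.71). The cytosolic paralogue Aldh1l1 measured 0.560 and 0.874 RPKM, and the mitochondrial enzyme genes Mthfd2 (71.6 and 74.0 RPKM) and Shmt2 (191 and 169 RPKM) had log2 ratios of 0.05 and -0.17. Aldh1l2 is also a target of the stress factor ATF4. Of 20 other measured ATF4 targets 1 was higher, Nupr1 (3.82 and 8.51 RPKM), and 1 lower, the arginine transporter gene Slc7a3 (4.44 and 1.85 RPKM), with a median of 0.12. Both calls were lost with a pseudocount of 1 RPKM and with the longest transcript of each gene, and the lower one also after centring, with the mean over protein-coding transcripts and with a filter of 5 RPKM. Asns, a standard target, measured 54.3 and 59.5 RPKM.

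Among 19 partners of Washc4, 1 was higher, the actin capping gene Capza2 (56.8 and 140 RPKM), and the median was 0.02. The other subunits of the WASH complex had log2 ratios from -0.37 (Washc2, 29.3 and 22.5 RPKM) to 0.02 (Washc3, 26.6 and 27.0 RPKM), and Washc5 measured 14.6 and 14.1 RPKM. None of 15 measured early endosome genes passed the rule (median -0.08), and the paralogue Appl1 measured 6.96 and 9.69 RPKM. For the SMC5/6 complex and the EID family, listed for Eid3, 0 of 10 measured genes passed (median 0.07), with Nsmce4a at 106 and 110 RPKM.

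Many measured markers of the myeloid, the erythroid and megakaryocyte and the dendritic cell lists were also called higher in the Δ/Δ library. The rule called 14 of 18 measured myeloid markers higher and none lower, and the 25 listed markers summed to 101.9 RPKM (C/C) and 334.7 RPKM (Δ/Δ), with Elane and Mpo at 0 in the C/C library. Many of the called markers reached 1 RPKM in Δ/Δ alone and so had to be higher, as for the members, and the share of higher calls among all measured genes was 6.28%. Of the 9 myeloid markers at 1 RPKM or more in both libraries 5 were higher, among them Lyz2 (9.01 and 120 RPKM). With a filter of 5 RPKM in at least 1 library 6 were higher, beside 4.95% of all genes past that filter. Some of these markers, such as S100a8 (0.463 and 30.8 RPKM), reached 5 RPKM in Δ/Δ alone and so had to be higher too. Of the erythroid and megakaryocyte list, 7 of 8 measured genes were called higher and none lower, with 78.2 and 255.3 RPKM summed over 15 genes. The 5 of 5 at 1 RPKM in both libraries were higher. Tfrc, at 68.6 and 177 RPKM, was among these 5 and held most of both sums. Of the dendritic cell list, 5 of 7 were called higher and none lower, with 394.7 and 412.2 RPKM summed over 12 genes. Irf8 (290 and 229 RPKM) and Tcf4 (59.0 and 74.0 RPKM), neither past the rule, held most of both sums. Of the 3 at 1 RPKM in both libraries (Bst2, Irf8 and Tcf4) 1 was higher, Bst2 (43.8 and 95.7 RPKM). No marker of the dendritic or the erythroid and megakaryocyte list was at 0. T and NK cell markers had 2 of 5 higher and 1 lower, with 122.2 and 108.7 RPKM summed over 15 genes, and Ncr1 and Gzma at 0 in both libraries and Cd3e at 0 in C/C. Mast cell and basophil markers had 1 of 2 higher, Prss34 (listed at 0, and 1.16 RPKM), with 4.4 and 4.2 RPKM summed over 9 genes. Of these 7 were at 0 in C/C and 3 (Cma1, Mcpt4 and Tpsb2) in Δ/Δ. Kit, at 4.42 and 2.23 RPKM, held most of both sums and fell. Mcpt8 (0 and 0.466 RPKM) and Cpa3 (0.004 and 0.239 RPKM) rose, as Prss34 did. Stromal and endothelial markers had 1 of 2 higher, Timp3, with 32.1 and 22.9 RPKM summed over 12 genes and Col3a1 at 0 in C/C. Pecam1, at 30.4 and 18.2 RPKM, held most of these sums. B lineage markers had 5 of 16 lower and 0 higher, with 5875 and 3806 RPKM summed, and none of the 16 was at 0 in either library. After centring, and with the common RPKM sum, 3 of the 16 were lower. The part of other cells in the levels of the members was not tested.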

How the data were processed

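RNA-seq of 2 libraries, Setdb1 C/C and Setdb1 Δ/Δ, was analysed from 1 table of 93615 Ensembl transcripts. Its RPKM values were computed by the authors and deposited with 3 decimals. Its column Wt was taken for C/C and its column Del for Δ/Δ. Per the submitters' processing notes, TopHat2 2.0.9 and bedtools were used, with the builds mm9 and mm10. The sources used here do not give their roles, the annotation release or the strand setting. Transcripts were matched by identifier to GENCODE M21 (GRCm38), which named 89571, and coordinates come from there. Each gene was represented by its transcript with the highest mean RPKM. Depth was found as the number of reads that makes RPKM times length whole. Of values of short transcripts (100 to 800 bases) with few reads, 96.6% (C/C) and 95.8% (Δ/Δ) were whole reads to within 0.1, as were both values of all 15 listed member transcripts of up to 800 bases. The 95% intervals are exact for a ratio of Poisson rates, with 2 reads as 1 fragment, and cover counting error only. The search, intervals and size rule were tested on simulated data (Python 3.11.15, scipy 1.17.1).

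Named genes were all members, their paralogues, the 3 nearest measured neighbours on either side and any past the rule. In partner lists, up to 4 genes of largest log2 ratio were named. The stretches of 5 genes, Glt8d2, Nqo1, Gclc, Mthfd2, Shmt2, Asns, Washc2 and Washc3 were added after their values were seen. So were Bst2, Irf8, Tcf4, Tfrc, Kit, Mcpt8, Cpa3 and Pecam1. Members and lists were chosen with earlier results of these data known. Promoters are from RefSeq (GRCm38.p6). Alternatives varied the pseudocount, scaling, transcript choice, filter and size rule.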

Additional observations from a re-analysis of the deposited data

How the results depend on the processing

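No paired analysis was possible because each genotype had 1 library, and for the same reason no library could be left out. The log2 ratios of the members ran, over 7 or 8 alternatives each, from 1.13 to 1.24 for Txnrd1, 1.38 to 2.36 for Chst11 and 1.51 to 2.5 for Slc41a2. They ran from 1.34 to 1.48 for D10Wsu102e, 1.62 to 3.23 for Aldh1l2, 1.29 to 1.41 for Washc4 and -0.37 to -0.20 for Appl2. None of them changed direction, but a pseudocount or a filter cannot turn a ratio round. Txnrd1, Chst11, D10Wsu102e and Washc4 have 1 listed transcript each, so for them only the scaling could have done so. With a filter of 5 RPKM in at least 1 library the count of 6 higher members fell to 3 of 4 measured. Chst11, Slc41a2 and Aldh1l2 do not reach that filter, and of all 9128 genes that do, 4.95% were higher. With a 4-fold rule the count fell to 2 (Slc41a2 and Aldh1l2), beside 1.75% of all measured genes. Both passed by their short transcripts. Their full coding transcripts, with log2 ratios of 1.67 (Slc41a2-201) and 1.74 (Aldh1l2-201), lay under that rule. The members' median of 1.38 became 1.48 after centring on the median of all genes, 1.46 after scaling to a common RPKM sum (the 20 most abundant genes left out) and 1.23 over the 4 members left at 5 RPKM. Of neighbours, the 1 lower gene, Tcp11l2, was lost (0 lower) with a pseudocount of 1 RPKM, after centring, with the common sum and with the mean over protein-coding transcripts. With a 1.5-fold rule 2 of 13 measured neighbours were higher and 3 lower, and with the 4-fold rule 0 and 0. Of 157 measured partners, 19 were higher and 14 lower with the 1.5-fold rule, and 1 and 0 with the 4-fold rule. The shares of all measured genes were 12.6% higher and 16.7% lower at 1.5-fold, and 1.75% and 1.86% at 4-fold. The 5 lower partners became 3 after centring and 3 with the filter of 5 RPKM. Of the marker lists, the filter of 5 RPKM left 6 of 14 higher myeloid calls, 4 of 7 erythroid and megakaryocyte calls and 2 of 5 dendritic calls, and the 5 lower B lineage calls became 3 after centring and with the common sum. Depth limits Aldh1l2, whose short transcript had 23 reads in the C/C library.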
